A study of Parascaris univalens with 7 samples.

Results

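The genes described here are those of the horse roundworm Parascaris univalens whose annotation names a splicing factor, a small nuclear ribonucleoprotein (snRNP) protein or the spliceosome, leaving out names with kinase or helicase. They were found by these words in the annotation text of each gene's representing transcript, the one with the highest mean level over the tissues. Of the 15027 genes in the table, 82 were members, on 58 scaffolds. The authors' table marked 10 of them as lying in eliminated DNA and 72 as retained. By role, 4 were annotated as Sm core proteins, 5 as U1 proteins, 21 as U2 or SF3 proteins, 6 as U4/U6.U5 proteins, 8 as U2AF or branch point factors, 18 as SR (serine/arginine-rich) proteins and 14 as pre-mRNA-splicing factors. Another 3 had other splicing names, and 3 were annotated as tRNA splicing enzymes, which do not act in the spliceosome. In some tissue 74 of the 82 reached 5 RPKM and 81 reached 1 RPKM. Of the members 45 share their annotation text with another member, so copies of 1 name are common.

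The spliceosome removes introns from pre-mRNA. It is built from U1, U2, U4, U5 and U6 snRNPs, each a small RNA with a ring of Sm or Sm-like proteins and its own specific proteins. U1 binds the 5′ splice site, U2AF and splicing factor 1 read the 3′ end of the intron and the branch point, U2 with its SF3A and SF3B parts then pairs with the branch point, and the tri-snRNP of U4, U6 and U5 completes the assembly before catalysis. SR proteins bind exons and help to select the splice sites. In nematodes the same machinery also joins a spliced leader RNA to the 5′ end of many mRNAs. Parascaris discards part of its genome from its future somatic cells during early cleavage, so that an eliminated gene is kept in the germline.

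Adult wild-type worms of a North American strain were dissected, and RNA of testis, ovary, embryo, intestine and carcass was sequenced with 1 library each. The labels name no mutation or treatment, call testis male germline and ovary female germline, and call embryo, intestine and carcass male somatic. How many worms went into a library is not given in the sources used here. A further 2 libraries, from mixed samples, marked transcripts that carry the spliced leader or another 5′ end. Levels are taken to be RPKM, read counts scaled to transcript length and library size, so they can be set side by side between genes. The recovered depth was lowest in embryo, at 11900000 reads, followed by intestine with 18550000, carcass with 27600000, testis with 31350000 and ovary with 31800000. At the members' median length, 3 reads give 0.0703 RPKM in testis and 0.185 in embryo. Intervals are exact Poisson 95% intervals and cover counting error only. With no replicate, no difference between tissues was tested, and fewer cells of a type cannot be told apart from less RNA per cell. A gene is called higher in a tissue when log2(RPKM + 1) differs by 2 (4-fold) or more and the higher of the pair reaches 5 RPKM. That scale understates the differences of low genes.

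The marker genes of testis, ovary, intestine and carcass summed highest in the tissue of that name. The summed level of 43 major sperm protein genes was 26077 RPKM in testis, against 38.7 in ovary and 159 in embryo, with 618 in intestine and 301 in carcass. Chondroitin proteoglycan and ovarian message genes summed highest in ovary, vitellogenins and digestive enzymes in intestine, and cuticle collagens, troponins and myosin heavy chains in carcass. Vitellogenins, yolk proteins that female nematodes make, summed to 2091 RPKM in intestine and 447 in carcass, which goes against the male sex in the labels of these libraries. No marker was fixed for embryo.

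Every one of the 10 eliminated members was higher in testis than in ovary by the call rule. The rule called 44.8% of all 985 eliminated genes and 11.6% of all genes in that direction. Against each of the other 4 tissues as well, all 10 members were called, where 41.7% of eliminated genes and 9.48% of all genes were. The list was chosen with the high testis levels of eliminated copies already known, so these shares describe it and test nothing. The 10 genes lie on 7 scaffolds and include overlapping pairs, so they are not 10 separate loci. Their testis levels ran from 5.5 to 1322 RPKM with a median of 35.7. Their medians were 1.25 RPKM in ovary and 2.25 in embryo, with 1.1 in intestine and 0.45 in carcass. The calls of PgE082_g001 and PgE165_g001 each rest on 1 transcript, as described further on.

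**Figure D1:**
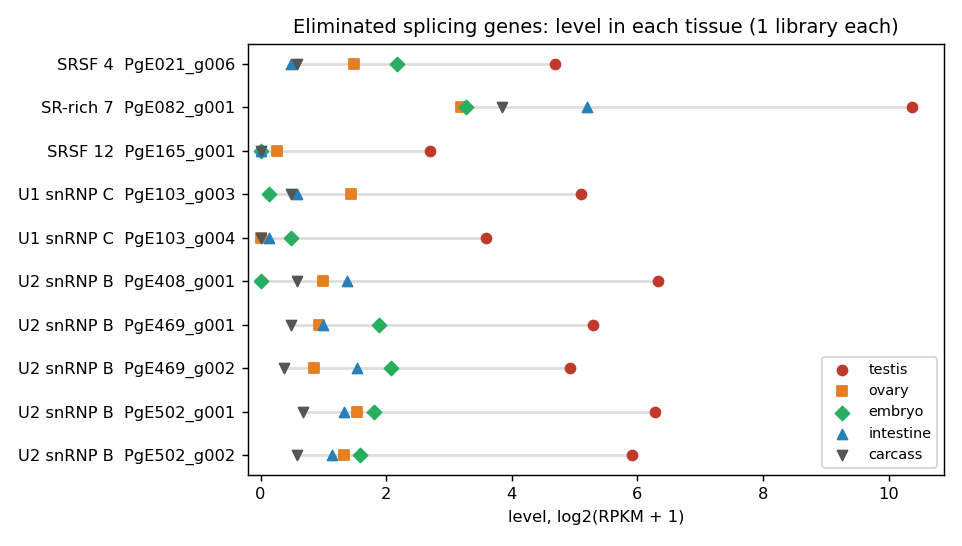
Level of each of the 10 eliminated splicing genes, as log2(RPKM + 1), with 1 point per tissue library. In each row the testis point stands to the right of the other 4, from 5.5 RPKM for SRSF 12 to 1322 RPKM for SR-rich 7.

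Of the eliminated members, 5 were annotated as U2 snRNP B, the protein that binds U2 snRNA together with U2 snRNP A. No retained member carries this annotation. PgE408_g001, whose representing transcript lies on scaffold PgE408 from 2299 to 4371 on the plus strand, stood at 79.5 RPKM in testis (76.2 to 82.9), 1.0 in ovary (0.648 to 1.43) and 0 in embryo (0 to 0.359), with 1.6 in intestine and 0.5 in carcass. By this transcript testis was 79.5-fold above ovary, with 2151 reads against 27. The gene's other transcripts had 46.6 to 66.4 RPKM in testis, 0.6 to 3.6 in ovary and 0 to 2.6 in embryo. PgE502_g001, at positions 7 to 2738 on the minus strand of scaffold PgE502, had 76.6 RPKM in testis, 1.9 in ovary and 2.5 in embryo, with 1.5 in intestine and 0.6 in carcass. PgE502_g002 is listed on the opposite strand of the same 2671 bases and had 59.0, 1.5, 2.0, 1.2 and 0.5 RPKM in the same order.

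The remaining pair repeats this arrangement. PgE469_g001 (positions 1 to 3045, minus strand) had 38.2 RPKM in testis, 0.9 in ovary and 2.7 in embryo, with 1.0 in intestine and 0.4 in carcass. PgE469_g002, wholly inside it on the plus strand, had 29.3, 0.8, 3.2, 1.9 and 0.3 RPKM. No source used here states whether reads were assigned by strand, so each pair may hold the reads of 1 locus, and reads that match several of these genes may be shared among them. Counted by scaffold there are 3 groups of U2 snRNP B genes. By the representing transcripts, testis was at least 36.6-fold above ovary in each. Lower ratios were listed for transcript 1 of PgE408_g001 (50.7 RPKM in testis, 3.6 in ovary) and transcript 2 of PgE502_g001 (21.5 and 1.1). U2 snRNP A, the partner protein, was retained in 2 copies, PgR009X_g195 and PgR009X_g198. These lie 54821 bases apart on opposite strands, with the same transcript length of 1083 nt and 9 exons. Their testis levels were below those of ovary and embryo, unlike U2 snRNP B, and carcass was again lowest, with 4.2 and 3.5 RPKM in testis, 15.1 and 14.2 in ovary, 21.2 and 20.2 in embryo, 2.4 and 2.3 in intestine and 1.3 and 1.4 in carcass. Neither passed the call rule for testis against ovary.

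U1 snRNP C, which helps the U1 snRNP hold the 5′ splice site, had copies of both kinds. The eliminated PgE103_g003 (scaffold PgE103, positions 7849 to 11067, plus strand) had 33.2 RPKM in testis (31.2 to 35.3), 1.7 in ovary (1.28 to 2.22) and 0.1 in embryo, with 0.5 in intestine and 0.4 in carcass. Its neighbour PgE103_g004, which begins 1048 bases past its end on the same strand, had 11.1 RPKM in testis, was listed at 0 in ovary and carcass, and had 0.4 in embryo and 0.1 in intestine. The retained PgR165_g006 spread over all tissues instead, with 9.3 RPKM in testis, 15.2 in ovary and 18.4 in embryo, with 4.1 in intestine and 2.1 in carcass. In testis, the level of PgE103_g003 was therefore above that of the retained gene, and in each of the other tissues it was below it.

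Copies of both kinds were also found for serine/arginine-rich splicing factor 4. The eliminated PgE021_g006 (scaffold PgE021, positions 44063 to 54014, plus strand) had 24.9 RPKM in testis, 1.8 in ovary and 3.5 in embryo, with 0.4 in intestine and 0.5 in carcass, 13.8-fold more in testis than in ovary. Of the 4 retained genes with this name, PgR033_g029 had 18.5, 43, 68.7, 19.3 and 4.8 RPKM in that order of tissues, and PgR044_g001 had 15.3, 15, 14.7, 8.5 and 5.4. PgR096_g027 had 10.6, 6.9, 47.7, 27 and 8.2, and PgR092_g002, with 1 exon, had at most 0.5 RPKM anywhere. By this transcript the eliminated gene had the highest testis level of the 5, and it was below the first 3 retained genes in the other tissues. Its other 4 transcripts had 12.8 to 17.7 RPKM in testis, below PgR033_g029, and 2 of its 5 are annotated as factor 5. PgE165_g001, annotated as serine/arginine-rich splicing factor 12, has no retained counterpart by name. It had 5.5 RPKM in testis (4.82 to 6.28) and 0.2 in ovary (0.083 to 0.379), and was listed at 0 in embryo, intestine and carcass. Its other transcripts had 3.1, 4.6 and 3.7 RPKM in testis, below the minimum of the call rule.

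PgE082_g001, annotated as a putative splicing arginine serine-rich 7, had the highest testis level of all members, at 1322 RPKM, rank 41 of 15027 genes and rank 5 of the 985 eliminated ones. It had 8.1 RPKM in ovary and 8.7 in embryo, with 35.6 in intestine and 13.3 in carcass. These values belong to 1 of its 4 transcripts. Transcript 1 runs from 782 to 23656 on the plus strand of scaffold PgE082, with 6615 nt in 12 exons. Transcript 2 starts 3418 bases further on, ends at the same position and has 3471 nt in 11 exons. It had 9.3 RPKM in testis, 14.4 in ovary and 6.8 in embryo, with 0.3 in intestine and 0.2 in carcass. Transcripts 3 and 4, inside the same span, had 8.7 and 6.0 RPKM in testis and 8.2 and 4.3 in ovary.

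In testis, transcript 2 held 1012 recovered reads against 274157 in transcript 1, or 0.369%, and in ovary 1589 against 1704, or 93.3%. Testis was thus far above ovary by transcript 1 (log2 difference 7.18), while transcript 2 was lower in testis than in ovary (−0.58) and transcripts 3 and 4 differed by 0.08 and 0.40. How reads in exons held by several transcripts were assigned is not known from the sources used here, so it cannot be said whether the testis reads lie in the sequence that transcript 1 alone holds. All 4 transcripts carry the same annotation. With the median over its transcripts the gene had 9 RPKM in testis and 8.15 in ovary and was not called. Whether transcript 1 joins the sequence of unlike products was not tested. For each pair of tissues, the log2(RPKM + 1) difference was also compared among a gene's transcripts that reach 5 RPKM in some tissue. Of 44 members with at least 2 such transcripts, 4 had transcripts that parted by 4-fold or more in some pair (9.09%, against 13.7% of 7296 genes). The range was 7.76 in PgE082_g001 for testis and ovary, 2.50 in PgR013_g012 for ovary and carcass, 2.49 in PgE408_g001 for testis and embryo, and 2.07 in the SR gene PgR006_g007 for ovary and intestine.

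**Figure D2:**
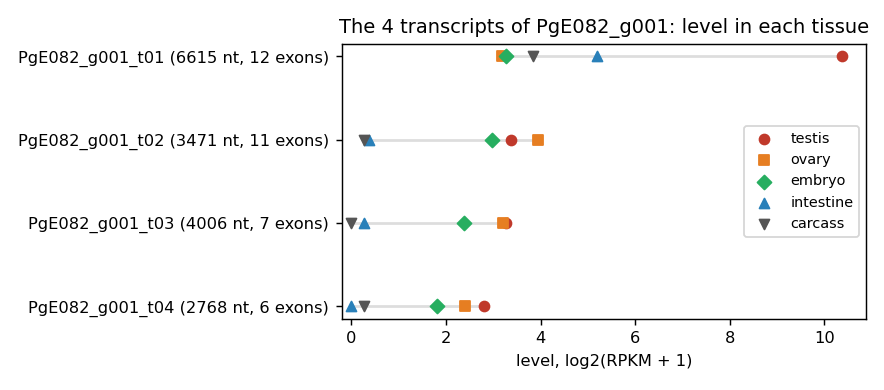
Level of the 4 transcripts of PgE082_g001 as log2(RPKM + 1), with 1 point per tissue library. Transcript 1 stands at 1322 RPKM in testis, and the 3 shorter transcripts stand from 6.0 to 9.3 RPKM in testis and from 4.3 to 14.4 in ovary.

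Outside testis 9 of the 10 eliminated members had at most 3.5 RPKM, while PgE082_g001 reached 35.6 RPKM in intestine. Their level in intestine was between 0% and 6.48% of that in testis (median 1.99%), and in carcass between 0% and 2.01% (median 0.927%). For the 31 major sperm protein genes with at least 20 RPKM in testis, the median was 2.13% in intestine and 1.11% in carcass. In ovary the eliminated members had a median of 2.51% of the testis level and in embryo 3.33%, against 0.0954% and 0.457% for the sperm genes. The part of testis RNA in these values was not tested.

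Among the 72 retained members 1 was called higher in testis than in ovary, against 9.25% of retained genes, and 7 were called higher in ovary, against 16.5%. Over all genes 15.9% were called for ovary, and none of the eliminated members was. The testis gene was PgR003_g222, annotated as splicing factor 3A subunit 2, a subunit of the SF3A complex of the U2 snRNP. It lies on scaffold PgR003 between 3927234 and 3934099 on the minus strand. It had 216 RPKM in testis (212 to 220), 0.2 in ovary (0.0995 to 0.336) and 0.1 in embryo (0.0104 to 0.31), with 4.9 in intestine and 1.7 in carcass. Its log2 difference of 7.50 was the largest of any member, and it was the only retained member enriched in testis against all other tissues, where 7.22% of retained genes were.

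Next to it on the scaffold lie 2 genes with the same annotation and the opposite pattern. PgR003_g221, which ends 975 bases before it on the same strand, had 12.7 RPKM in testis, 93.3 in ovary and 87.1 in embryo, with 21.5 in intestine and 8.4 in carcass. PgR003_g220, a further 867 bases away on the plus strand, had 7.6, 40.6, 21.4, 10.3 and 2.5 RPKM. Ovary was 7.35-fold and 5.34-fold above testis in these genes. Thus 3 neighbouring genes of 1 name held the highest testis level among retained members and 2 of the 7 calls for ovary. A gene elsewhere with this name, PgR012_g161, has a single exon and no strand, and had 7.2 RPKM in testis and at most 3.3 in the other tissues.

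**Figure D3:**
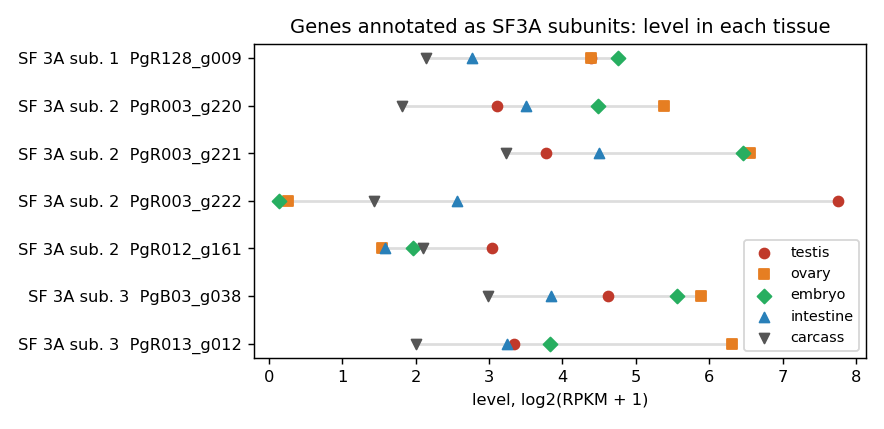
Level of the 7 genes annotated as SF3A subunits as log2(RPKM + 1), with 1 point per tissue library. PgR003_g222 has 216 RPKM in testis but 0.2 in ovary, and its neighbours PgR003_g221 and PgR003_g220 stand highest in ovary.

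The other calls for ovary included 2 more subunits of the SF3 complexes. PgR013_g012, listed as splicing factor 3A subunit 3, had 9.1 RPKM in testis, 78.6 in ovary (76.0 to 81.3) and 13.2 in embryo, with 8.5 in intestine and 3.0 in carcass, and was enriched in ovary against all other tissues. Its transcript 1 alone has this annotation. The other 5 start at least 4323 bases further on, are annotated as a ribosomal L1 domain protein and ranged from 14.8 to 20.9 RPKM in ovary, so the gene entry joins unlike products. PgB03_g038, the other gene named subunit 3, had 23.7 RPKM in testis, 58.1 in ovary and 46.0 in embryo, with 13.3 in intestine and 6.9 in carcass, and was not called. PgR133_g011, a short splicing factor 3B subunit 2 entry of 496 nt, had 2.0 RPKM in testis, 16.6 in ovary and 19.1 in embryo, with 4.4 in intestine and 3.3 in carcass, while the longer PgR018_g003 had 23.5, 38.1, 42.9, 22.9 and 7.9.

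The calls for ovary were completed by genes of 3 roles. PgR065_g023, a U2AF 35 kDa subunit, which in other animals contacts the 3′ splice site, had 4.4 RPKM in testis, 20.8 in ovary and 7.0 in embryo, with 3.0 in intestine and 2.3 in carcass. PgB04_g054, pre-mRNA-splicing factor 18, which acts in the second catalytic step in yeast, had 20, 88.9, 35.3, 18.1 and 10.3. PgR002_g227, a tRNA-splicing endonuclease, had 22.9, 96.8, 23.1, 5.3 and 3.1 and was enriched in ovary. With PgR013_g012 it was 1 of 2 members so enriched, where 1.8% of all genes were. All 7 calls for ovary were between 4.23-fold and 8.64-fold, none reached 8-fold on the log2(RPKM + 1) scale, and none remained with median-of-ratios scaling.

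**Figure D4:**
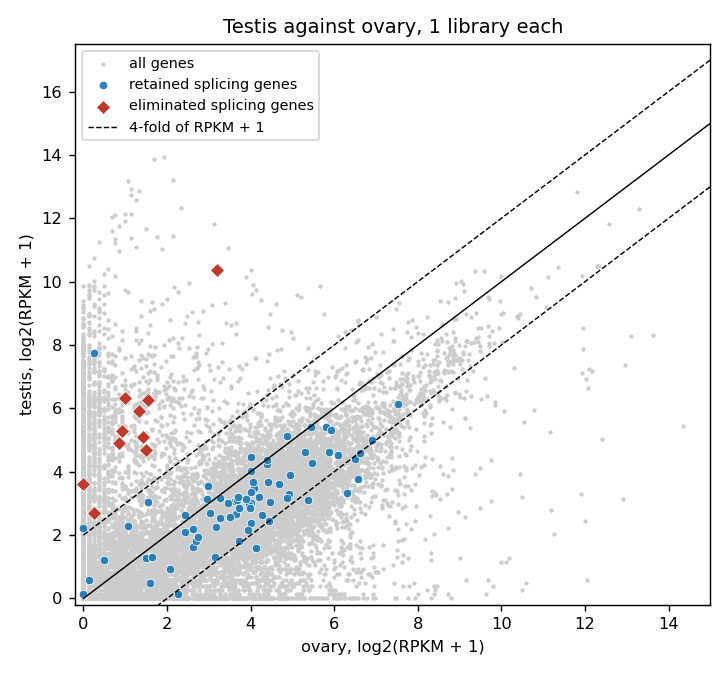
Testis against ovary as log2(RPKM + 1) for 15027 genes in grey, the 72 retained splicing genes in blue and the 10 eliminated ones as red diamonds, with 1 library per tissue; the solid line is equality and the dashed lines the 4-fold limits. The red diamonds lie above the upper limit, and of the 2 blue points beyond it PgR003_g222 passes the call rule, while PgR011_g009 misses the minimum of 5 RPKM.

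Most retained members were expressed in all tissues at moderate levels. Their median was 7.35 RPKM in testis, 14.35 in ovary and 15.85 in embryo, with 6.05 in intestine and 2.25 in carcass. Of the 71 with at least 1 RPKM in a tissue, 35 were highest in embryo (49.3%, against 21.0% of retained genes), 25 in ovary, 7 in testis, 4 in intestine and none in carcass. Carcass was the lowest tissue of 60 (84.5%, against 33.5%). With median-of-ratios scaling 29 were highest in embryo (40.8% against 17.8%) and 43 lowest in carcass (60.6% against 17.7%). Ovary was above testis in 57 of the 71 as deposited (80.3%, against 66.4% of retained genes) but in 26 with median-of-ratios scaling (36.6%, against 46.5%), so that the usual order of these tissues depends on the scaling.

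The Sm core, the ring on which the snRNPs other than U6 are built, was led by Sm D3 (PgB13_g030). It had 68.8 RPKM in testis, 182.7 in ovary and 145.4 in embryo, with 28.1 in intestine and 24.0 in carcass, the highest mean level of any retained member. Sm D2 (PgR018_g073) had 7.0, 9.9, 18.0, 10.4 and 4.7, the F protein (PgR251_g001) 5.0, 10.4, 6.5, 4.4 and 2.2, and Sm D1 (PgR044_g002) 0.9, 3.2, 12.8, 4.6 and 0.6. Proteins of 1 ring thus differed widely in listed level. The shortest of these entries, the F protein, has 234 nt.

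The U1 70 kDa protein, which binds U1 snRNA directly, was listed as 2 genes that overlap by 487 bases on the same strand. PgB10_g043 had 5.2 RPKM in testis, 4.4 in ovary and 10.2 in embryo, with 6.7 in intestine and 1.8 in carcass, and PgB10_g042 was above 0.1 RPKM in embryo alone, at 2.0. Among the SF3B proteins, which contact the branch point, subunit 3 (PgR088_g014) had 39.1, 59.5, 66.3, 23.3 and 9.4 RPKM. These values are of its transcript 4, with 602 nt in 5 exons. Its transcript 1, with 3911 nt in 29 exons, was highest in ovary, with 34.2, 54.7, 43.7, 17.6 and 8.1. Subunit 1 (PgR070_g036) had 21.1, 15.2, 18.6, 13.8 and 3.8. It was 1 of 7 retained members listed highest in testis, although its levels in testis, ovary and embryo lay within 1.5-fold of one another. Splicing factor 3A subunit 1 (PgR128_g009) stood at 19.9 RPKM in both gonads, 26.1 in embryo, and 5.8 and 3.4 in intestine and carcass.

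The 6 U4/U6.U5 proteins ranged from 2.8 to 11.1 RPKM in testis and from 5.7 to 29 in ovary. The U5 116 kDa component (PgR048_g035), a GTPase, had 11.1 RPKM in testis, 24.8 in ovary and 21.2 in embryo, with 16.0 in intestine and 4.0 in carcass. Prp3 (PgR014X_g116), of the U4/U6 snRNP, had 8.9, 29.0, 15.5, 6.8 and 3.1, and the U5 40 kDa protein (PgR076_g005) had 7.9, 13.9, 29.8, 4.4 and 2.4. Prp4 (PgR053_g035) had 8.2, 17.3, 10.2, 6.3 and 1.2. None of the 6 was called in testis against ovary. Pre-mRNA-splicing factor 8, the large protein at the catalytic centre, is the annotation of 2 neighbouring entries on the same strand, of which PgR012_g182, with 44 exons, had 17.9, 19.9, 31.2, 12 and 5.4 RPKM and PgR012_g181, with 16 exons, had 22, 67.1, 24.5, 27.5 and 11.5.

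Of the 8 U2AF and branch point genes, the large subunit U2AF 65 kDa (PgR010_g165) was highest, with 33.9 RPKM in testis, 28.0 in ovary and 56.4 in embryo, with 18.3 in intestine and 10.7 in carcass. Splicing factor 1 (PgR006_g113), the branch point binding protein, had 7.4, 11.3, 25.3, 6.4 and 1.3. The small subunit was listed as 6 genes that did not share a pattern. Beside the ovary gene given above, PgR018_g119 was highest in intestine, with 0.4 RPKM in testis, 2.0 in ovary and 1.8 in embryo, with 8.6 in intestine and 3.1 in carcass. PgR367_g001 had 0.5, 0.1, 0.5, 3.1 and 2.0, and PgR011_g178 was highest in testis by transcript 1, with 3.9, 1.1, 2.5, 1.7 and 0.6. Transcripts 2 and 3 of PgR011_g178 had 2.6 and 2.7 RPKM in both testis and embryo. Its transcript 4 was highest in embryo, at 3.4 RPKM against 2.4 in testis. PgR011_g009 had 3.7 RPKM in testis and 0.4 in embryo and was listed at 0 in the other tissues, and its testis level was too low for the call rule. It overlaps a gene on the opposite strand.

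Of the 14 retained SR genes with at least 1 RPKM in a tissue, 11 were highest in embryo and none in intestine or carcass, against 9 in embryo and 3 in intestine with median-of-ratios scaling. PgB17_g059, splicing factor arginine/serine-rich 3, led them with 41.7 RPKM in testis, 42.5 in ovary and 90.9 in embryo, with 44.8 in intestine and 19.8 in carcass. PgR003_g185, a putative SR protein 6, had 6.7, 14.5, 44.4, 7.5 and 4.6, and serine/arginine-rich splicing factor 1 (PgR028_g041) had 5.2, 18.4, 27.8, 7.1 and 2.0. The retained namesake of the eliminated SR-rich 7, PgR115X_g012, had 4.8, 8.6, 11.4, 6.9 and 1.3. The median log2 difference of embryo against ovary was 0.77 over these 14 genes, with an interval over genes of −0.03 to 1.49 that includes 0. It was 1.05 over 3 retained U1 genes and 0.76 over 6 U2AF and branch point genes (−1.45 to 1.10). Sm core genes had 0.24, retained U2 and SF3 genes 0.19 (15 genes), and other splicing names 0.02. Pre-mRNA-splicing factors had −0.24, U4/U6.U5 genes −0.32 and tRNA splicing genes −0.14, against −0.23 over all retained genes. A value of this size was thus also listed for other roles, but over few genes.

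Among the remaining pre-mRNA-splicing factors, RBM22 (PgR083X_g003), which contacts the catalytic RNA core, had 7.3 RPKM in testis, 21.0 in ovary and 16.7 in embryo, with 13.3 in intestine and 3.7 in carcass. WTAP (PgR063X_g053), known in mammals as a subunit of the RNA methyltransferase that makes N6-methyladenosine, had 8.1, 28.0, 12.7, 13.9 and 3.7. Syf1 (PgB01_g241), a scaffold of the Prp19-related complex, had 10.1, 15.8, 16.0, 7.8 and 2.8. Ovary was the highest tissue of 8 of the 14 genes of this role as deposited, but of 2 with median-of-ratios scaling, where ovary was highest in 38.6% and 17.7% of retained genes. Of the other splicing names, splicing factor 45 (PgR028_g032) had 30.9, 119.0, 67.4, 22.2 and 13.8, and a poly(U)-binding splicing factor (PgB13_g038), whose fly homologue regulates alternative splicing, had 41.9, 54.5, 55.4, 28.8 and 9.5. Splicing factor 30 (PgR098_g027), related to the snRNP assembly protein SMN, had 11.8, 15.7, 19.4, 5.2 and 2.4. Beside the tRNA endonuclease given above, its subunit Sen2 (PgR024_g111) had 6.2, 14.7, 14.8, 5.6 and 2.2 RPKM, and the tRNA-splicing ligase PgR022X_g119, which joins the exon ends, had 13.8, 29.6, 26.8, 20.2 and 11.5.

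**Figure D5:**
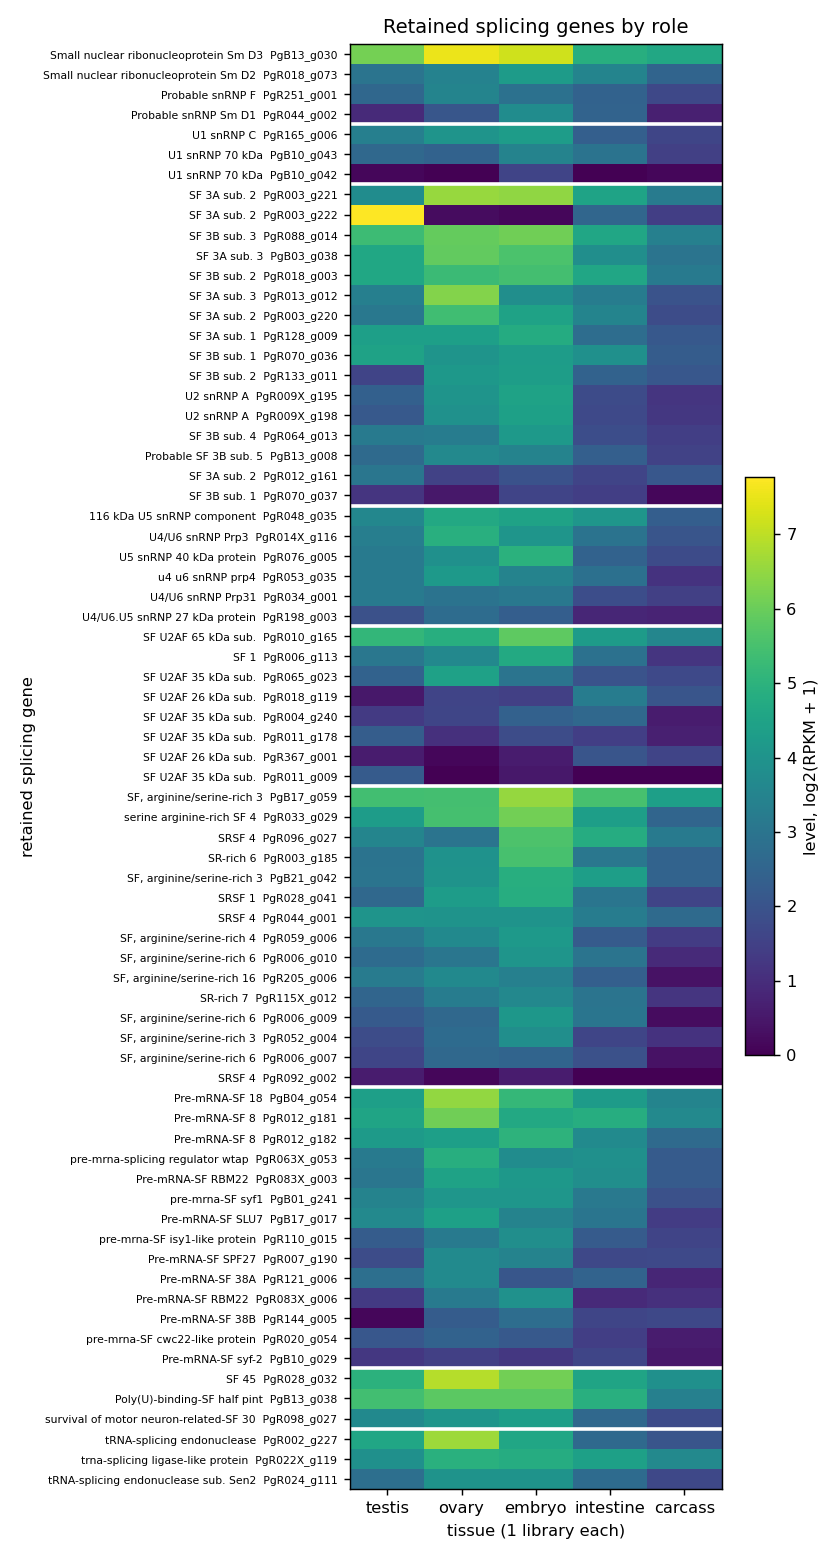
Level of the 72 retained splicing genes in 5 tissues as log2(RPKM + 1), 1 row per gene and 1 library per tissue, grouped by role from Sm core at the top to tRNA splicing at the bottom. Ovary and embryo are the bright columns of most rows and carcass the dark one, and PgR003_g222 is bright in testis alone.

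The other comparisons called few members. In embryo against ovary, which shares the ovary library with the comparison above, 1 of 82 was higher in embryo (background 5.35%) and 2 in ovary (4.45%). The first was PgR096_g027, a serine/arginine-rich splicing factor 4, at 47.7 RPKM (44.1 to 51.6) in embryo and 6.9 (6.06 to 7.83) in ovary. The others were PgR013_g012 and PgR002_g227, given above. The median difference of the members was 0.23, against −0.22 for all genes.

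In intestine against carcass, 3 members were higher in intestine (4.96% of all genes) and none in carcass (7.19%). The serine/arginine-rich 6 gene PgR006_g009 had 7.1 RPKM (5.46 to 9.14) in intestine and 0.2 (0.0478 to 0.677) in carcass, and its neighbour PgR006_g010, 1140 bases away on the other strand, had 7.0 and 0.9. The U2AF 35 kDa gene PgR004_g240 had 5.1 and 0.5. All 3 were close to the minimum of 5 RPKM, and with the median over transcripts none was called. The other transcripts of PgR006_g009 had 1.8 and 4.1 RPKM in intestine. The median difference was 1.01, against 0.59 for all genes, and 70 of 74 members were listed higher in intestine, as were 7440 of 11016 genes in all.

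Germline against soma, which set the lower gonad level against the higher level of the 2 adult somatic tissues, called no member in either direction. The rule called 3.36% of all genes for germline and 1.7% for soma. None of the eliminated members was called, where 17.6% of eliminated genes were, and each had at most 8.1 RPKM in ovary. The members' median was 0.13, against −0.62 for all genes. No member was enriched in embryo, intestine or carcass, where 1.9%, 1.95% and 3.67% of all genes were.

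Genes that act beside the members were found by other fixed words, and their counts stand against the 11.6% of all genes called for testis and 15.9% for ovary. Of 5 splicing helicases none was called in testis against ovary, and of 3 snRNP assembly genes 1 was higher in ovary, the trimethylguanosine synthase PgB25_g011, which adds methyl groups to the cap of snRNAs, with 32.5 RPKM in testis and 173.8 in ovary. Of 10 LSm genes 3 were higher in ovary and none in testis, and 1 of the 3, PgR022X_g089, is an LSM14 gene. The list holds 1 eliminated gene, another LSM14 homologue (PgE009_g001). LSM14 proteins are translation regulators and not part of the U6 ring. PgE009_g001 had 6.8 RPKM in testis, 22.1 in ovary and 11.7 in embryo, with 0.4 in intestine and 0.2 in carcass. It was highest in ovary, unlike the representing transcripts of the eliminated members, which were highest in testis. Transcript 2 of PgE082_g001 was also listed highest in ovary, with 14.4 RPKM there and 9.3 in testis. Of 6 exon junction genes 5 were higher in ovary, all of them annotated as partner of Y14 and mago, a factor that takes the complex apart in the fly, and all on scaffold PgR123.

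Of 18 heterogeneous nuclear ribonucleoprotein genes, which bind nascent RNA, 1 was higher in testis and 1 in ovary. The testis gene, PgR069_g034, a retained hnRNP K, had 77.6 RPKM in testis, was listed at 0 in ovary and embryo, and had 0.7 in intestine and 0.9 in carcass, while the other hnRNP K gene, PgR110_g005, had 61.0, 153.6, 147.8, 53.1 and 33.2. A pair of unlike genes of 1 name was thus found outside the snRNPs and without elimination. Of 7 tissue splicing regulators 2 were higher in ovary, the quaking homologue PgR080_g034 (2.2 RPKM in testis, 17.3 in ovary) and the CELF gene PgB16_g007 (7.6 and 35). The words for splicing kinases matched none (0). With median-of-ratios scaling the calls for ovary in these lists fell to 2, both in the exon junction list (PgR123_g003 and PgR123_g006), and the testis call of PgR069_g034 remained.

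The eliminated members were 12.2% of the 82, where 6.55% of all genes were eliminated. The choice of these genes already named the eliminated testis copies, so nothing is read from that share. All 10 eliminated members lie on scaffolds whose names begin with PgE. The choice did not use the marks of the 5′ libraries. The spliced leader mark was on 35 of 72 retained members (48.6%, 36.7% to 60.7%), against 34.8% of retained genes. Of the eliminated members 1, PgE408_g001, carried it, against 12.8% of eliminated genes. By role it was on 3 of the 4 Sm core genes, 4 of the 6 U4/U6.U5 genes and 4 of the 15 retained SR genes. The mark of the other 5′ library was on 10 members (12.2%), against 14.2% of all genes, and 5 carried both marks. The median number of exons was 6 for retained members and 4 for eliminated ones, the same as for all retained and all eliminated genes.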

How the data were processed

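RNA of 5 tissues was sequenced with 1 library each, and 2 mixed libraries of 5′ ends entered the table as marks. Per the labels' protocols, rRNA was removed and a TotalScript kit was used. The authors deposited values per transcript with 1 decimal, read here as RPKM. Their low steps are whole reads scaled by length and by a factor of each library. That this factor is the library size was assumed, and the recovered depths rest on it. The submitters' processing notes list TopHat2 and Cufflinks. No source used here gives the genome build, the use of strand, how multi-mapping or shared reads were counted, or how elimination was marked. Near-identical copies are therefore uncertain.

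A gene is its transcript with the highest mean RPKM of the 40487 listed; 3 genes matched the words only by another transcript and are not members. Depth was recovered from the steps of short, low transcripts, and reads from RPKM, length and depth. Calls used a pseudocount of 1, a 4-fold threshold and a minimum of 5 RPKM. Medians used genes with at least 1 RPKM in a compared tissue, with exact binomial intervals over genes. With 1 library per tissue there is no test between tissues. The call rule and depth recovery were tested on simulated data. Python 3.11.15, pandas 2.3.3, numpy 2.4.6 and scipy 1.17.1 were used.

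Named genes are the 4 highest of each role, all eliminated members, the 8 largest differences per direction among called members, members enriched in 1 tissue, and retained genes with the name of an eliminated one. Members and partner genes named beyond these, such as PgR009X_g195, PgR070_g036, PgR128_g009, PgR012_g161, PgR018_g003, PgB10_g042, PgB01_g241, PgR083X_g003, PgR003_g185, PgR028_g041, PgR367_g001, PgR011_g178, PgR011_g009 and the named genes of the other lists, were chosen after their values were seen. Roles follow words in the annotation; serine/arginine-rich splicing factor 1 was kept with the SR proteins and the number 38 of a factor was not read as 3. The members, lists and rules were chosen with earlier results of these data known, among them that eliminated copies are high in testis. No columns of other samples were found (0). The alternatives tried are another pseudocount, no minimum, other folds, median-of-ratios scaling (each library divided by the median over genes of its ratio to their geometric mean), sums or medians over transcripts, and smaller member sets.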

Additional observations from a re-analysis of the deposited data

How the results depend on the processing

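In testis against ovary the count of members higher in testis, 11 as reported, was between 9 and 12 under every alternative tried, and that of eliminated members, 10 as reported, between 8 and 10. The median over transcripts, chosen after seeing the data, lost PgE082_g001 and PgE165_g001. Retained members higher in testis were 2 in place of 1 with a 2-fold threshold, median-of-ratios scaling, no minimum RPKM and sums over transcripts. The 7 members higher in ovary became 26 with a 2-fold and 0 with an 8-fold threshold, 2 with a pseudocount of 5 and 0 with median-of-ratios scaling. In embryo against ovary the 1 call for embryo became 10 with 2-fold and 0 with 8-fold; the 2 for ovary became 7 with 2-fold, 0 with 8-fold, and 1 with the median over transcripts, median-of-ratios scaling, a pseudocount of 5 or without tRNA splicing. In intestine against carcass the 3 calls for intestine became 30 with 2-fold, 0 with 8-fold, a pseudocount of 5 or the median over transcripts, 1 with median-of-ratios scaling and 8 with sums over transcripts. The 0 calls for germline became 7 with 2-fold and 1 with medians or sums over transcripts; those for soma stayed at 0. Median-of-ratios scaling moved the median of all genes by 1.03 in testis against ovary, 0.31 in embryo against ovary, −0.56 in intestine against carcass and −0.48 in germline against soma. It turned the members' median to 0.39 (from −0.67) in testis against ovary and to −0.31 (from 0.13) in germline against soma, and moved it to 0.51 in embryo against ovary and 0.50 in intestine against carcass. Over all genes the share of calls for the first-named tissue went from 42.1% to 72.0% in testis against ovary, from 54.6% to 64.8% in embryo against ovary, from 40.9% to 12.9% in intestine against carcass and from 66.4% to 37% in germline against soma. The members' median less that of all genes was 0.22 in testis against ovary, 0.26 with median-of-ratios scaling, 0.07 with a pseudocount of 5 and −0.07 with no minimum RPKM; in germline against soma it was 0.75, 0.80, 0.39 and 0.44. A pseudocount of 5 gave 0.56 in intestine against carcass. The share of spliced leader members stayed inside its interval. No paired analysis was possible because each tissue has 1 library. Depth limits the embryo values most, and no value has a replicate.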
